A study of Mus musculus with 12 samples.

Results

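Transcript levels of 10 genes of the integrated stress response were examined in the whole spinal cord at the age of 1 week. The genes were chosen by symbol, and all 10 were found among 38924 genes in the files, each on 1 row: Atf4, Atf5, Atf3, Ddit3 (whose protein is CHOP), Cebpb, Cebpg, Trib3, Sesn2, Eif4ebp1 and Stc2. RNA came from mice carrying the P278KY allele of Gars, which encodes glycyl-tRNA synthetase, and from wt mice. The series title gives the mutant as heterozygous and before the onset of disease, while the genotype label names only the allele. The strain background of both genotypes was B6J;CAST. The 12 libraries, 1 per mouse, fell into 4 groups of 3: female P278KY, female wt, male P278KY and male wt. Libraries are named by group and mouse number. The allele is present in the whole animal rather than driven in 1 cell type, and the sampled tissue was the whole cord, so fewer cells of a type and less RNA per cell cannot be told apart.

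The integrated stress response starts when kinases that sense amino acid shortage, unfolded protein, viral RNA or heme shortage phosphorylate the initiation factor eIF2. General translation then falls, while open reading frames upstream of the Atf4 coding sequence let ATF4 protein be made in larger amounts. ATF4 pairs with C/EBP proteins and switches on genes of amino acid supply and further regulators, among them Ddit3, Atf3, Atf5 and Trib3. Much of this control acts on translation and on protein, which RNA levels do not record.

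Promoter windows from RefSeq (GRCm38.p6), reaching from 250 bases before to 50 bases after the start, were found by symbol for 9 of the 10 genes, Eif4ebp1 being the other. They hold 10 windows, because Atf5 has 2 starts. The windows of Atf4 and Ddit3 are shown because these genes had no overlap between genotypes, and those of Atf3 and Trib3 because they alone among the 10 windows held the searched motif. All 4 are printed 5′ to 3′ on the strand of the gene and are the reference sequence, not that of these mice. The motif was TGATGNAA on either strand, the core of the C/EBP-ATF response element that ATF4 binds with a C/EBP partner, and capitals mark it where it occurs. No overlap with another motif was searched.
Atf4, chr15:80254934-80255233, plus strand: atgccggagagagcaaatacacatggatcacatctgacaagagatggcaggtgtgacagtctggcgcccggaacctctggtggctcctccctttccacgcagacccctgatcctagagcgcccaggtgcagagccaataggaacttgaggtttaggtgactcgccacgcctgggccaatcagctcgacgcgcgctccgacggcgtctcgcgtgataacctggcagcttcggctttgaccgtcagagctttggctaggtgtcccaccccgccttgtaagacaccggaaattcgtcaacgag
Ddit3, chr10:127290543-127290842, plus strand: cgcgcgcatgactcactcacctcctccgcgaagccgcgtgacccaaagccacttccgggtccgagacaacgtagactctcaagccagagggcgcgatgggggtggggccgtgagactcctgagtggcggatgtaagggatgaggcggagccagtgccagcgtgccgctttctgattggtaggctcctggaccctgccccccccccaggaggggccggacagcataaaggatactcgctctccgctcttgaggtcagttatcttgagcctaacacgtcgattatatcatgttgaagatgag
Atf3, chr1:191183284-191183583, minus strand: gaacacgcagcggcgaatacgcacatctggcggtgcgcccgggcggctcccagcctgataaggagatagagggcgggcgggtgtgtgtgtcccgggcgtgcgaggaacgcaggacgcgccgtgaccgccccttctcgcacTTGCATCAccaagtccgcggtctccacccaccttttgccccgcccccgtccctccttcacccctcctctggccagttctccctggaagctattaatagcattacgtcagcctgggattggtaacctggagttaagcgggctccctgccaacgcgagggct
Trib3, chr2:152344011-152344310, minus strand: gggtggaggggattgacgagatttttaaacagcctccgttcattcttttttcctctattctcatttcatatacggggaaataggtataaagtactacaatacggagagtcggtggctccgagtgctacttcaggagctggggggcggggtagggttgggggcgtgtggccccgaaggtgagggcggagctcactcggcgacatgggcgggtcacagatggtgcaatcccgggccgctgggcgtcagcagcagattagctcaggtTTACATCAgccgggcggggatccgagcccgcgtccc
In Atf3 the matching letters read TTGCATCA and began 110 bases before the start. In Trib3 they read TTACATCA and began at position 15 of the transcript, counted from the start. So 2 of 9 genes held the motif, against 1219 of 27025 genes (4.51%) and 1304 of 32851 windows of the same length (3.97%). The match describes letters in these windows, and the absence of a match says only that the letters are not there.

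The libraries held 27713981 to 43219891 expected counts each. Of all genes, 17995 passed the filter on low counts, and all 10 stress regulators were among them. Gars itself had 121 to 140 normalised read counts (CPM, scaled to the library total) in P278KY libraries and 117 to 135 CPM in wt libraries, so its level does not check the genotype labels. In female wt 14 and male wt 19 the RNA of sex-linked genes went against the labelled sex, which touches every comparison made within a sex. The tissue label was in keeping with the RNA: all 10 neuron, all 8 astrocyte, all 8 oligodendrocyte and all 8 posterior Hox markers were detected. The neuron markers summed to 6519 to 7681 CPM in P278KY libraries and 6647 to 8429 CPM in wt libraries. The posterior Hox markers summed to 282 to 370 CPM in P278KY libraries and 211 to 415 CPM in wt libraries, with female wt 14 lowest. Markers of tissue beside the cord also varied between libraries, and are given after the 10 genes.

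Across the 10 genes, every fitted difference between the genotypes was above 0 (P278KY over wt), with a median log2 fold change of 0.37, against -0.01 over all genes tested. Of all genes tested, 46.9% had a fitted value above 0. No stress regulator passed the test after adjustment (edgeR quasi-likelihood with Benjamini-Hochberg adjustment over all genes, threshold 0.05). In that test 1 gene of 17995 (0.00556%) was called higher and none lower. At an unadjusted p under 0.05, 4 of the 10 were higher and none lower: Atf4, Ddit3, Stc2 and Atf5. The background at that threshold was 432 genes higher (2.4%) and 304 lower (1.69%). DESeq2 on the same counts called 2 of the 10 higher, Atf4 and Ddit3, where the background was 27 of 17877 genes (0.151%). In Atf4 and Ddit3 every P278KY library lay above every wt library, which was true of 18 genes in all (0.1%). No stress regulator had every P278KY library below every wt library, which 0.122% of genes had.

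**Figure D1:**
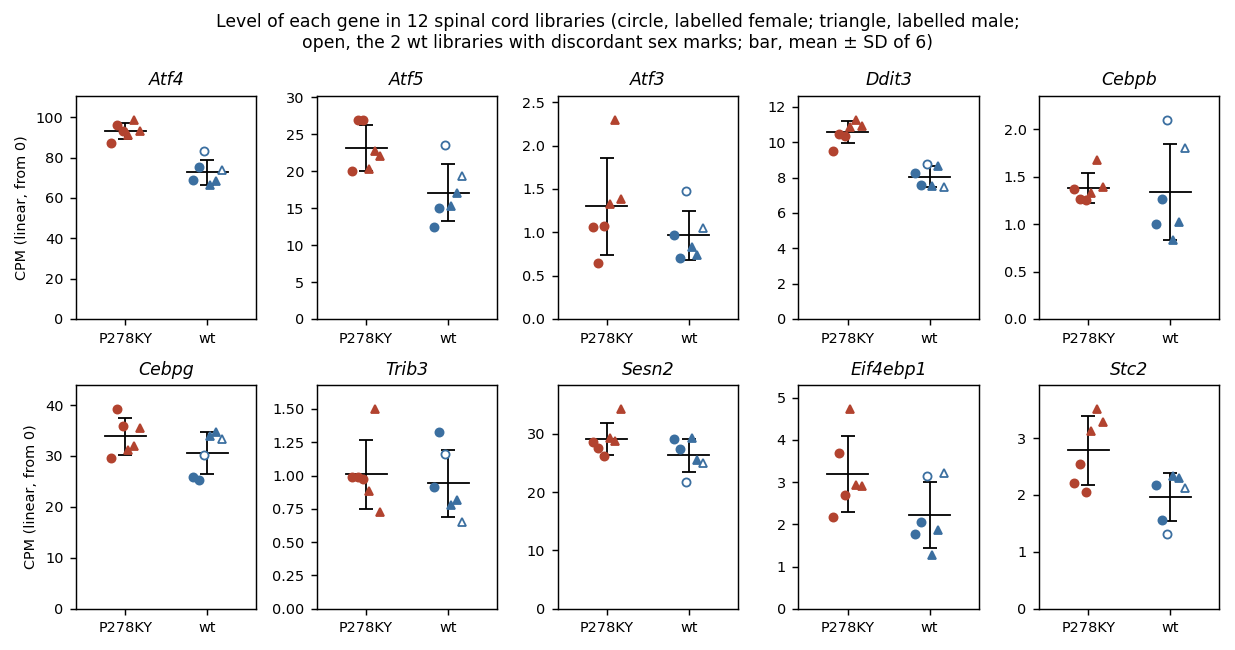
CPM of each of the 10 genes in the 12 libraries, P278KY left of wt in each panel, on linear axes from 0. Circles are labelled females, triangles labelled males, open symbols the 2 wt libraries with discordant sex marks, and bars the mean and SD of 6 libraries. Only Atf4 and Ddit3 show no overlap between the genotypes.

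Atf4, the factor whose protein drives the response (ENSMUSG00000042406, chr15:80255184-80257541 in GENCODE M21 on GRCm38), had the highest TPM of the 10. It had 87.4, 96.2 and 93.2 CPM in female P278KY libraries, against 68.9, 75.3 and 83.5 CPM in female wt libraries. In male P278KY libraries it had 91.3, 98.8 and 93.0 CPM, against 66.5, 68.5 and 73.8 CPM in male wt libraries. All 6 P278KY libraries exceeded all 6 wt libraries, and the highest wt library was female wt 14. The mean was 93.3 ± 3.94 CPM in P278KY and 72.7 ± 6.24 CPM in wt (SD, n = 6 each). The log2 fold change was 0.36 ± 0.06 (SE; 95% interval 0.24 to 0.48), a 1.28-fold higher level. The unadjusted p of edgeR was 2.7e-05, rank 4 among all genes, and its adjusted p was 0.123. DESeq2 gave the same size of difference, 0.36, with an adjusted p of 2.5e-06. In edgeR without female wt 14 the adjusted p was 0.0435, with a log2 fold change of 0.40 ± 0.05. Without both wt libraries of discordant sex marks it was 0.058, with a log2 fold change of 0.42.

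Atf5, an ATF4 relative that is also controlled by upstream reading frames and acts on mitochondrial stress genes (ENSMUSG00000038539, chr7:44812256-44816658), overlapped between the genotypes. It had 19.99, 26.9 and 27.0 CPM in female P278KY libraries, against 12.4, 15.1 and 23.5 CPM in female wt libraries. In males it had 20.2, 22.7 and 22.0 CPM in P278KY libraries, against 15.2, 16.99 and 19.3 CPM in wt libraries. The overlap came from 1 library, female wt 14, and 5 of 6 wt libraries lay below every P278KY library. The log2 fold change was 0.43 ± 0.14 (SE), with an unadjusted p of 0.00992 and an adjusted p of 1.00 in edgeR. Without female wt 14 the count of stress regulators with no overlap was 3, Atf5 being the addition, and the background was 30 genes (0.167%). Without male wt 19 the count was 2, with a background of 0.567%. Without both libraries it was 4, Atf4, Ddit3, Atf5 and Eif4ebp1, with a background of 180 genes (1%).

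Ddit3, whose product CHOP is a C/EBP relative that promotes cell death under long stress (ENSMUSG00000025408, chr10:127290774-127296288), had 9.504, 10.5 and 10.4 CPM in female P278KY libraries, against 8.25, 7.56 and 8.78 CPM in female wt libraries. In males it had 10.8, 11.3 and 10.9 CPM in P278KY libraries, against 7.55, 8.67 and 7.49 CPM in wt libraries. The lowest P278KY library, female P278KY 4, lay above the highest wt library, female wt 14. The mean was 10.6 ± 0.612 CPM in P278KY and 8.05 ± 0.595 CPM in wt (SD, n = 6 each). The log2 fold change was 0.39 ± 0.07 (SE; 95% interval 0.24 to 0.55), a 1.31-fold higher level. In edgeR the unadjusted p was 0.000127, rank 8 among all genes, and the adjusted p was 0.285. In DESeq2 the adjusted p was 0.000772. Counts of 245 to 346 per library alone would give a coefficient of variation of 5.77%, and the observed values were 5.80% in P278KY and 7.38% in wt.

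Atf3, a stress-induced repressor and activator that neurons also switch on after axon injury (ENSMUSG00000026628, chr1:191170296-191218039), was scarce, at 21 to 63 counts per library. It had 1.06, 0.650 and 1.07 CPM in female P278KY libraries, against 0.971, 0.706 and 1.47 CPM in female wt libraries. In males it had 1.32, 2.30 and 1.39 CPM in P278KY libraries, against 0.833, 0.743 and 1.05 CPM in wt libraries. The genotypes overlapped among females and did not overlap among males. Over all libraries the log2 fold change was 0.38 ± 0.28 (SE), with an interval of -0.23 to 0.98 and an edgeR unadjusted p of 0.201. It was 0.18 without male P278KY 5 and 0.58 without female wt 14. The coefficient of variation was 42.8% in P278KY and 29.4% in wt, where counting alone would give 16.6%.

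Cebpb and Cebpg encode C/EBP partners of ATF4. Cebpb, also a factor of inflammation and of fat cell formation (ENSMUSG00000056501, chr2:167688915-167690418), had 1.26 to 1.68 CPM in P278KY libraries, median 1.35, and 0.833 to 2.10 CPM in wt libraries, median 1.15. The wt range enclosed the P278KY range, with female wt 14 and male wt 19 highest. Its log2 fold change was 0.05 ± 0.23 (SE), with a 95% interval of -0.45 to 0.54. Without female wt 14 it was 0.23, without male wt 19 it was 0.19, and without both it was 0.42. Its direction turned when female wt 1, male wt 6, male wt 9 or male P278KY 5 was left out. Cebpg, which has no activation domain of its own and pairs with ATF4 (ENSMUSG00000056216, chr7:35046422-35056573), had 29.5, 39.2 and 35.9 CPM in female P278KY libraries, against 25.9, 25.3 and 30.2 CPM in female wt libraries. In males it had 31.1, 31.9 and 35.5 CPM in P278KY libraries, against 33.9, 34.6 and 33.3 CPM in wt libraries. The genotypes overlapped in both sexes, the fitted difference was above 0 in females and below 0 in males, and over all libraries it was 0.16 ± 0.09 (SE), or 0.094 without female P278KY 7.

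The remaining genes act downstream or as brakes. Trib3, a pseudokinase that ATF4 and CHOP switch on and that dampens ATF4 in return (ENSMUSG00000032715, chr2:152337422-152344032), had 23 to 45 counts per library. It had 0.724 to 1.497 CPM in P278KY libraries, median 0.980, and 0.653 to 1.32 CPM in wt libraries, median 0.864. The ranges overlapped nearly wholly, and the log2 fold change was 0.13 ± 0.21 (SE). It became -0.07 without male P278KY 5, 0.22 without female wt 2 and 0.045 without male wt 19. Counting alone would give Trib3 a coefficient of variation of 17.8%, against 25.7% observed in P278KY and 26.9% in wt, and the 95% interval of its log2 fold change, -0.34 to 0.59, includes the size measured for Atf4.

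Sesn2, a leucine sensor that restrains the growth kinase mTORC1 (ENSMUSG00000028893, chr4:132492032-132510501), had 26.2 to 34.2 CPM in P278KY libraries, median 28.6, and 21.8 to 29.2 CPM in wt libraries, median 26.4. The ranges overlapped, with male P278KY 13 highest and female wt 14 lowest. Its log2 fold change of 0.14 ± 0.08 (SE) had an edgeR unadjusted p of 0.0867, and was 0.067 without both wt libraries of discordant sex marks. Eif4ebp1, which encodes a repressor of cap-dependent translation and an mTORC1 substrate (ENSMUSG00000031490, chr8:27260329-27276674), had 2.18 to 4.73 CPM in P278KY libraries, median 2.91. In wt libraries it had 1.26 to 3.22 CPM, median 1.97, with the 2 wt libraries of discordant sex marks highest. Its log2 fold change was 0.51 ± 0.25 (SE), the largest of the 10, with an interval of -0.03 to 1.06 and an edgeR unadjusted p of 0.0628. Without both of those wt libraries it was 0.87.

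Stc2, a secreted glycoprotein induced by stress of the endoplasmic reticulum (ENSMUSG00000020303, chr11:31357307-31370074), had 2.22, 2.54 and 2.04 CPM in female P278KY libraries, against 2.17, 1.56 and 1.32 CPM in female wt libraries. In males it had 3.12, 3.51 and 3.28 CPM in P278KY libraries, against 2.34, 2.30 and 2.12 CPM in wt libraries. The male groups did not overlap and the female groups did. The log2 fold change was 0.49 ± 0.13 (SE; interval 0.20 to 0.78), with an unadjusted p of 0.00287 and an adjusted p of 1.00 in edgeR. On the deposited TPM scale the log2 difference was 0.18 with a pseudocount of 1 and 0.33 with a pseudocount of 0.1, where the larger pseudocount understates changes near 1 TPM. The effective length that divides the count was 2087 bases in male wt 9 and 3239 to 3750 bases in the other libraries. That library therefore had the highest TPM of Stc2, 1.80, at 2.30 CPM.

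**Figure D2:**
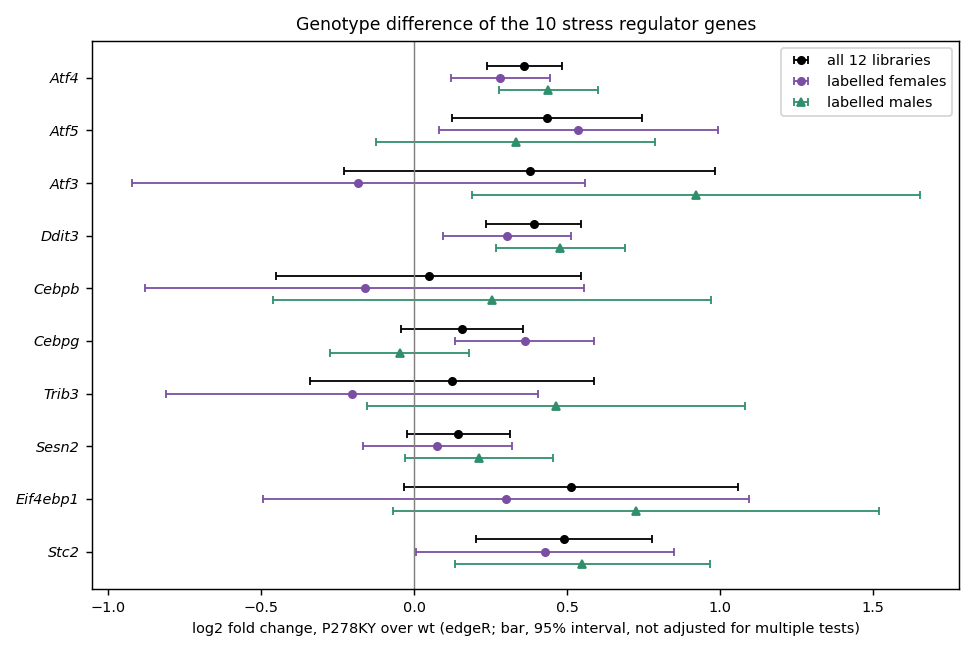
Log2 fold change of each gene, P278KY over wt, from edgeR: black over all 12 libraries, violet in labelled females, green in labelled males, with 95% intervals that are not adjusted for multiple tests. The intervals of Atf4, Ddit3 and Stc2 lie above 0 in all 3 fits, while those of Cebpb, Trib3, Sesn2 and Eif4ebp1 include 0 in all 3.

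Levels between genes were compared in TPM, which is divided by transcript length. By mean TPM in wt libraries the order was Atf4, Ddit3, Atf5, Sesn2, Cebpg, Eif4ebp1, Cebpb, Stc2, Atf3 and Trib3. Atf4 averaged 103 ± 5.16 TPM in P278KY and 82.6 ± 8.10 TPM in wt (SD, n = 6 each). By its mean over all 12 libraries it lay above 96.1% of all 38924 genes in the files. Of those genes, 22001 to 23173 were detected in a library. Ddit3 averaged 26.5 ± 1.26 TPM in P278KY and 20.8 ± 1.79 TPM in wt. Trib3, the lowest, averaged 1.06 ± 0.226 TPM in P278KY and 0.897 ± 0.236 TPM in wt. Its effective length was 1241.56 bases in female P278KY 10, 1184.5 bases in male P278KY 13 and 1710.52 to 1822.59 bases in the other libraries. Shorter lengths raise TPM, and the log2 ratio of its mean TPM was 0.24, against 0.13 in the edgeR fit on counts. In wt, neighbours in this order had overlapping ranges except at 3 steps: Atf4 above Ddit3, Cebpg above Eif4ebp1, and Eif4ebp1 above Cebpb. At those 3 steps the gene was above the next in 12 of 12 libraries. On the TPM scale the genotypes of Ddit3 still did not overlap, while those of Atf4 did, since female wt 14 had 97.7 TPM and male P278KY 3 had 97.1 TPM.

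**Figure D3:**
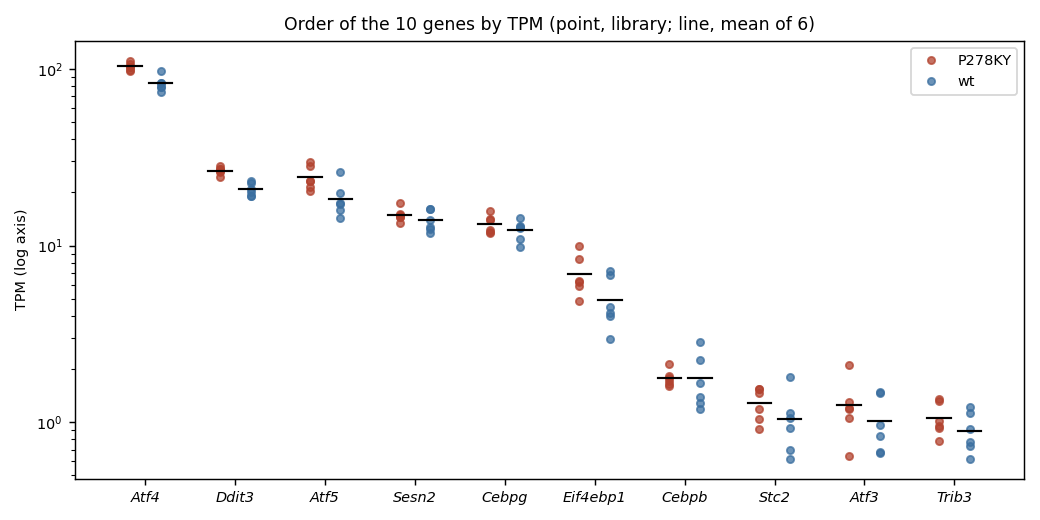
TPM of the 10 genes on a log axis, in order of their mean in wt, with P278KY left of wt for each gene; points are libraries and lines the means of 6. Atf4 stands apart near 100 TPM, 5 genes lie roughly between 3 and 30 TPM, and Cebpb, Stc2, Atf3 and Trib3 lie near 1 TPM.

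Within the labelled sexes no stress regulator passed the adjusted edgeR test, and no gene at all did (0%). In females, 5 of the 10 had an unadjusted p under 0.05, all higher: Atf4, Atf5, Ddit3, Cebpg and Stc2. The background was 5.81% of genes higher. In males, 4 of the 10 did, all higher: Atf4, Atf3, Ddit3 and Stc2, where the background was 2.26%. Fitted differences were above 0 in 7 of the 10 in females (48.1% of genes) and in 9 of the 10 in males (49.3% of genes). The genotypes did not overlap in 2 of the 10 in females, Atf4 and Ddit3, where 7.76% of genes were in that order. In males they did not overlap in 5 of the 10, Atf4, Atf5, Atf3, Ddit3 and Stc2, against 5.69% of genes. DESeq2 called Atf4 in females, 1 of the 10, where it called 1.32% of genes higher. In males it called Atf4 and Ddit3, with 0.117% of genes higher. The log2 fold change of Atf4 was 0.28 ± 0.07 in females and 0.44 ± 0.07 in males, and that of Ddit3 was 0.30 ± 0.10 in females and 0.48 ± 0.10 in males (SE).

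The difference between the sexes was itself tested, and no gene was called in edgeR. At an unadjusted p under 0.05, 2 of the 10 differed in either direction, where the background was 10.9%. DESeq2 called none of the 10 for this difference, while it called 279 of all genes. For Cebpg the log2 fold change in females minus that in males was 0.41 ± 0.15 (SE), with an unadjusted p of 0.0169 and an adjusted p of 0.344. For Atf3 it was -1.10 ± 0.47 (SE), with an unadjusted p of 0.0397 and an adjusted p of 0.437 in edgeR. Neither passed, and both groups of wt females and wt males hold a library with discordant sex marks. Between labelled females and males over both genotypes, 1 of the 10 had an unadjusted p under 0.05 (4.6% of genes). That gene was Stc2, at -0.48 ± 0.13 (SE; edgeR adjusted p 0.764), below 0 for females over males. DESeq2 called none of the 10 between the sexes, and 27 of all genes.

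Markers of tissue attached to the cord moved with several of the 10 genes. The 10 markers of meninges and fibroblasts summed to 1737 to 2969 CPM in P278KY libraries, median 2746, and 1157 to 4665 CPM in wt libraries, median 1624. Female wt 14 was highest and none of the markers was at 0 in all libraries. Fitted values were above 0 for 7 of the 10 and below for 3, and Col1a1, Col1a2 and Col3a1, with means of 897, 815 and 536 CPM in P278KY and 693, 627 and 464 CPM in wt, made up most of the sum. For correlations and fits, each list was given a score, the mean log2 CPM of its markers, in which every marker weighs alike, unlike in the sum. After subtraction of each group's mean, Atf4 went with the meninges score at r = 0.92 and Atf5 at r = 0.96 over 12 libraries. Every r given with a marker list uses that list's score. Without female wt 14, over 11 libraries, the values were 0.87 and 0.88. These correlations are a description of libraries that share a dissection and a scaling to the library total. With this marker score as a further term, the log2 fold change was 0.32 ± 0.04 (SE) for Atf4, with an adjusted p of 0.0342 in edgeR, 0.38 for Ddit3 and 0.30 for Atf5. With the score of 10 cartilage and bone markers, which summed to 92.1 to 245 CPM in P278KY and 82.9 to 206 CPM in wt, it was 0.29 ± 0.03 (SE) for Atf4 (edgeR adjusted p 0.0107), and 0.34 for Ddit3. These scores as terms were chosen after the data were seen.

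The 9 markers of dorsal root ganglion neurons summed to 91.9 to 116 CPM in P278KY libraries, median 98.4, and 92.7 to 553 CPM in wt libraries, median 116, with female wt 14 highest. All 9 had fitted values below 0, with a median log2 fold change of -1.50, and none passed in edgeR or DESeq2, while 2 had an unadjusted p under 0.05. Atf4 went with the score of these markers at r = 0.76 and at 0.70 without female wt 14. With the score as a term, Atf4 had a fitted difference of 0.43 ± 0.05 on the log2 scale (SE), with an edgeR adjusted p of 0.016. This term, too, was chosen after the data were seen. The 7 red blood cell markers summed to 1919 to 4225 CPM in P278KY and 1004 to 4801 CPM in wt, and r with Atf4 was 0.86, or 0.77 without female wt 14. The 8 microglia markers summed to 187 to 287 CPM in P278KY and 173 to 250 CPM in wt, with r = 0.76 and 0.70 without female wt 14. The 9 bone marrow and neutrophil markers summed to 23.5 to 132 CPM in P278KY and 26.1 to 200 CPM in wt, with r = 0.59 and 0.53. The 10 Schwann cell markers summed to 9079 to 13676 CPM in P278KY and 9580 to 13629 CPM in wt, with r = 0.14 and 0.18. Against the neuron markers Atf4 had r = -0.76, and -0.86 without female wt 14. For Ddit3, r was 0.67 with the bone marrow and neutrophil markers, 0.49 with the dorsal root ganglion markers and -0.27 with the Schwann cell markers, and 0.62, 0.094 and -0.32 without female wt 14. The part of these tissues in the level of Atf4 was not tested beyond the fits given.

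Skeletal muscle markers had a higher median in P278KY. The 10 markers summed to 66.7 to 2599 CPM in P278KY libraries, median 582, and 11.8 to 991 CPM in wt libraries, median 35.1, and all 10 had fitted values above 0. None of them passed the adjusted edgeR test, DESeq2 called none, and 5 had an unadjusted p under 0.05. Eif4ebp1 went with the score of these markers at r = 0.74 over 12 libraries and 0.78 without female wt 14. With the muscle score as a term, its log2 fold change was -0.035 ± 0.27 (SE), while that of Atf4 was 0.33 ± 0.08 and that of Ddit3 was 0.40. In that fit the edgeR adjusted p of Atf4 was 1.00. Stc2, by contrast with Atf4, ran against the meninges score, at r = -0.70, and at -0.36 without female wt 14.

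**Figure D4:**
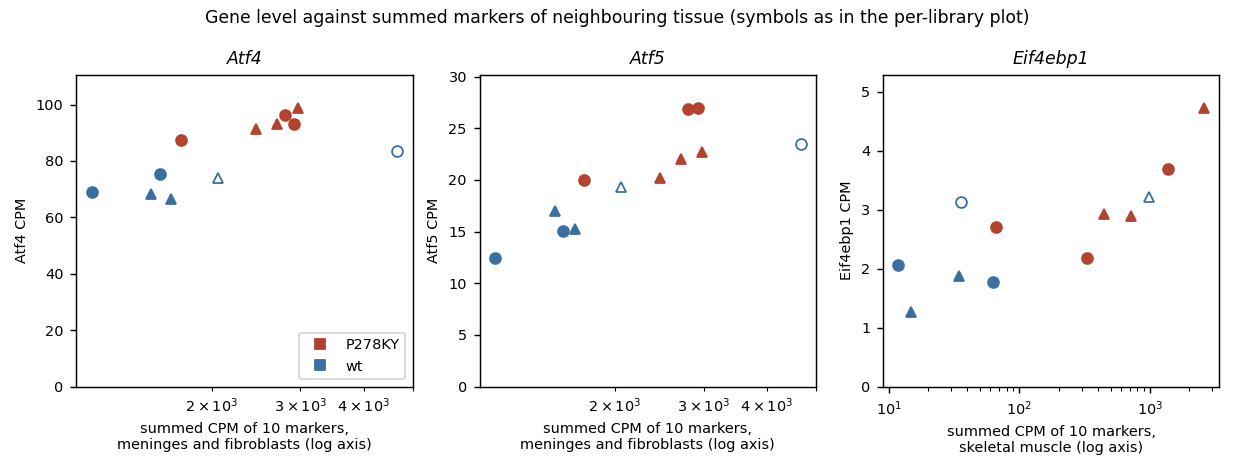
CPM of Atf4 and Atf5 against the summed CPM of 10 markers of meninges and fibroblasts, and CPM of Eif4ebp1 against that of 10 skeletal muscle markers (log horizontal axes), 1 point per library, P278KY red and wt blue. Meninges sums of P278KY libraries run from 1737 to 2969 CPM, and male wt 19 is the only wt library within that range, so the genotypes share few marker levels. Eif4ebp1 is highest where muscle markers are highest.

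Between mice of a group, the 10 genes did not all move in the same direction. Of their 45 pairs, 26 had a positive r after subtraction of group means, 11 were above 0.5 and 9 below -0.5, with a median of 0.14 over 12 libraries. Without female wt 14 the counts were 24, 8 and 4, and the median was 0.064. Atf4 and Atf5 were most alike, at r = 0.94, and 0.91 without female wt 14. Sesn2 ran against both, at -0.78 with Atf4 and -0.80 with Atf5, and at -0.58 and -0.52 without female wt 14. Atf4 and Ddit3, the pair with the clearest genotype difference, had r = 0.34, and 0.016 without female wt 14. The coefficient of variation of Ddit3, 5.80% in P278KY and 7.38% in wt, was near the 5.77% from counting alone. Counting error also limits the r values of the scarce Cebpb, Atf3 and Trib3. A low r of these genes therefore cannot show that they varied apart from the others.

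Over all genes, the residual pattern of Atf4 was most like that of Ddah2 (r = 0.98), Rps10 (r = 0.98) and Mcm3 (r = 0.97) over 12 libraries. That of Ddit3 was most like Chat (r = 0.96), the choline acetyltransferase of motor neurons, Adam4 (r = 0.95) and Entpd5 (r = 0.94). That of Trib3 was most like Galnt4 (r = 0.92), Wibg (r = 0.90) and Usp3 (r = 0.90). These were picked as the highest values among all 17995 genes tested, and a pick from so many over 12 libraries can reach a high r unaided. The spread of Ddit3 was near counting error, and Adam4 averaged 0.228 CPM in P278KY and 0.538 CPM in wt. Links between these genes were not tested. None passed the genotype test in edgeR (each adjusted p 1.00), with log2 fold changes between genotypes that ran from -1.19 for Adam4 to 0.05 for Galnt4.

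Of 25 other ATF4 targets tested, 1 rose in edgeR, Fgf21, a secreted hormone of metabolic stress, and DESeq2 called 5 higher. It had 0.473 to 1.51 CPM in P278KY libraries and 0 to 0.0314 CPM in wt libraries, with an adjusted p of 0.00137. The fitted values of 23 were above 0 and of 2 below, with a median log2 fold change of 0.13, and 10 had an unadjusted p under 0.05, all higher (2.4% of all genes were higher at that threshold). Genotypes did not overlap, with P278KY above wt, in 4 of the 25 (0.1% of all genes). Besides Fgf21 these were Aldh18a1, of proline synthesis, Chac1, which degrades glutathione, and Slc7a3, a cationic amino acid transporter, named after their values were seen. Their log2 fold changes were 0.30 ± 0.05 for Aldh18a1, 0.52 ± 0.09 for Chac1 and 0.43 ± 0.08 for Slc7a3 (SE). DESeq2 called these 4 and Mthfd2, of mitochondrial folate metabolism, at 0.38 ± 0.09 in edgeR (SE). Among 15 eIF2 kinases, subunits and regulators, none passed in edgeR, 7 were above 0 and 8 below, and the median was -0.01. At an unadjusted p under 0.05 there was 1, Eif2s2, which DESeq2 also called. Their smallest p values belonged to Eif2s2, the beta subunit of eIF2, at 0.16 ± 0.04, and Ppp1r15b, an eIF2 phosphatase subunit, at 0.09 ± 0.05.

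Over all genes, 8434 fitted values were above 0 and 9561 below, while at an unadjusted p under 0.05 there were 2.4% higher and 1.69% lower. In the next 6 lists DESeq2 called no gene. Of 22 other bZIP factors none passed in edgeR, 13 were above 0, 1 had an unadjusted p under 0.05, and the median was 0.03, with Crebzf at 0.13 ± 0.05 and Jdp2 at 0.15 ± 0.07. Of 7 paralogs of the genes without a bZIP domain none passed in edgeR, 4 were above 0 and 1 had an unadjusted p under 0.05, with Eif4ebp3 at 0.87 ± 0.28 and Trib2 at -0.09 ± 0.05. Of 16 targets of ATF6 and XBP1, the other arms of the unfolded protein response, none passed in edgeR, 3 were above 0 and 13 below, and 1 had an unadjusted p under 0.05, lower. Their median was -0.06, with Manf at -0.13 ± 0.06 and Pdia4 at -0.09 ± 0.05. Of 10 p53 targets none passed in edgeR, 8 were above 0 and 3 had an unadjusted p under 0.05, with Eda2r at 0.70 ± 0.23 and Trp53inp1 at 0.30 ± 0.10. Sesn2 is also a p53 target. Of 10 immediate early genes none passed in edgeR, 0 had an unadjusted p under 0.05, and 3 were above 0 and 7 below, with Egr2 at -0.85 ± 0.62 and Nr4a1 at -0.10 ± 0.09. Of 9 neuron injury genes none passed in edgeR, 0 had an unadjusted p under 0.05, and 5 were above 0, with Ngfr at -0.48 ± 0.40 and Gal at 0.11 ± 0.11.

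**Figure D5:**
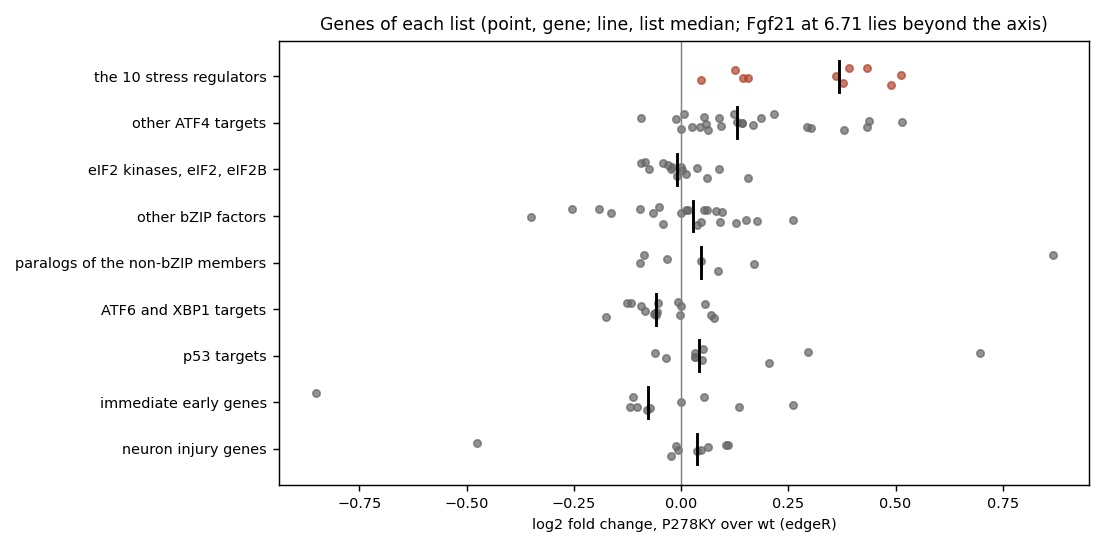
Log2 fold change, P278KY over wt, of each gene of the 10 stress regulators (top, red) and of 8 other lists, 1 point per gene and a line at each list's median. The median of the stress regulators is 0.37 and that of the other ATF4 targets 0.13, while the remaining medians lie between -0.08 and 0.05. Fgf21 is beyond the axis, and its fitted value depends on the prior count because wt libraries had almost none.

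In the annotation, 6 of the 10 genes overlap a neighbour and 4 share exon bases with one, which bears on their counts because the strand setting of the counting is not given in the sources used here. Ddit3 shares 68 exon bases with Mars, the methionyl-tRNA synthetase gene on the opposite strand. Mars had 54.9 to 60.5 CPM in P278KY libraries and 48.7 to 53.4 CPM in wt libraries, with a log2 fold change of 0.22 ± 0.03 (SE; edgeR adjusted p 0.123). The annotation also holds a further gene of the symbol Ddit3 on the same strand that shares 105 exon bases with it. Cebpb shares 312 exon bases with Tmem189 on the opposite strand, a gene with 71.6 CPM in P278KY and 77.1 CPM in wt on average over its whole length (log2 fold change -0.10 ± 0.09, SE). Atf5 shares 82 exon bases each with Il4i1 and Nup62 on the opposite strand. Cebpg shares 73 exon bases with Gm44836 on the same strand and 4 with Gm45095 on the opposite strand. Ddit3 also shares 13 exon bases with Gm4189 on the opposite strand. Atf3 overlaps Gm24748 by 108 bases and Sesn2 overlaps Gm12981 by 6089 bases, with no shared exon bases. How many fragments were divided among these genes was not tested.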

How the data were processed

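Per the labels' protocols, poly(A) RNA of whole cord was made into libraries with KAPA stranded mRNA kits and sequenced paired-end. The submitters' processing notes list the tools Bowtie2 2.2.0 and RSEM 1.2.12. Genome build, annotation and strand setting were not given in the sources used here. The deposited expected counts are, per the file headers, estimated fragments per gene, divided among genes and transcripts where fragments fit several, and the deposited TPM values were normalised by the authors for length and depth. FPKM values were left out.

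Expected counts were rounded, filtered with filterByExpr over the 4 groups, scaled with TMM factors and tested with edgeR 4.0.16 (quasi-likelihood, robust) in R 4.3.3. Labelled sex was a term, and contrasts within sex and the interaction used 1 mean for each group. Adjustment was Benjamini-Hochberg over all 17995 genes. The common biological coefficient of variation was 23.9%. CPM uses the TMM-adjusted total, and log2 CPM a prior count of 2. Standard errors were derived from the log2 fold change and its F statistic. DESeq2 1.42.0 and limma 3.58.1 were alternatives, with other scalings, filters, pseudocounts and libraries left out. The scripts were tested on simulated data.

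The 10 genes, the lists and the tests were chosen with earlier results of these data known. The text names all 10 genes, list genes past the threshold or else the 2 with the smallest p, the 3 genes most alike in residual pattern to Atf4, Ddit3 and Trib3, and annotated neighbours. Of the listed symbols, Slc18a3 was not found, Gcn1 was found as Gcn1l1, and Atf7, which matched 2 rows, was left out. Positions come from GENCODE M21 on GRCm38. Each library is 1 mouse, and precision estimates from counts cover counting error only.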

Additional observations from a re-analysis of the deposited data

Results flagged for a closer look

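In groups of 6 libraries, the highest or lowest library was set against the others for each of the 10 genes and both genotypes, 20 groups in all, and chance marks about 1 group in 20. Both libraries marked were male P278KY 5. Cebpb had 1.68 CPM there, against a nearest value of 1.39 CPM and a lowest of 1.26 CPM among P278KY libraries. Trib3 had 1.497 CPM there, against a nearest value of 0.991 CPM and a lowest of 0.724 CPM. Male P278KY 5 was also the highest P278KY library for Atf3 (2.30 CPM), Atf4 (98.8 CPM), Ddit3 (11.3 CPM) and Stc2 (3.51 CPM), and it had the highest sums of meninges markers (2969 CPM) and of cartilage and bone markers (245 CPM) of its genotype. The part of these tissues in the high values was not tested.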

How the results depend on the processing

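The count of stress regulators called between genotypes was 0 in edgeR, 2 in DESeq2 (Atf4, Ddit3) and 1 without female wt 14 (Atf4). It was 0 without both wt libraries of discordant sex marks (Atf4 adjusted p 0.058 in edgeR). With the dorsal root ganglion, meninges, or cartilage and bone score as a term it was 1 each (Atf4). These terms were chosen after the data were seen. With the muscle score as a term the count was 0. It was also 0 under limma-voom, limma-trend on TPM with either pseudocount, and the other scalings. The same held without the count filter, under the strict filter, without the sex term and at a threshold of 0.1. Leaving out each library in turn gave 0 to 1. DESeq2 gave 1 in females and 2 in males, where edgeR gave 0, and leaving out libraries gave 0 to 0 in both. The count by sex and for the interaction was 0 under every alternative run. Over all genes edgeR called 1 and DESeq2 33 between genotypes, and 0 and 289 in females. Without female wt 14 edgeR called 1 gene of all between genotypes, which was Atf4, so Fgf21 was not called there, and it called 9 in females. Without both discordant wt libraries edgeR called 0 between genotypes and 11 in females. The cause of these differences was not tested. Over all alternatives the adjusted p of Atf4 ran from 2.5e-06 to 1.00 and that of Ddit3 from 0.000772 to 1.00, with log2 fold changes of 0.29 to 0.43 and 0.34 to 0.44.

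Of 269 values of single genes under alternatives, 254 kept their direction and side of the threshold, 6 passed it where the edgeR value did not, and 9 turned below 0. Without 1 library, Cebpb ran from -0.071 to 0.23 and Trib3 from -0.069 to 0.22. With the muscle score as a term Cebpb was -0.22 and Eif4ebp1 -0.035. Cebpb was -0.071 with the meninges score and -0.14 with the cartilage and bone score. Under the strict filter 9 of the 10 genes were tested, Trib3 being removed. The values of Cebpb, Atf3 and Trib3 rest on 21 to 77 counts per library, which limits them. No paired analysis was possible because the groups share no mouse numbers.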
